A study of Saccharomyces cerevisiae with 44 samples.

Results

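The SRATs are a set of noncoding RNAs of budding yeast, most of which run antisense to protein-coding genes. They were taken as the lines of the authors' table of representative noncoding RNAs whose identifier carries an SRAT entry. There were 492 of them among 4318 RNAs, and no measured value entered the choice. The authors had merged overlapping transcripts of several catalogues into these RNAs, so that the 532 SRAT entries of the unmerged table of 8412 transcripts fell into 492 RNAs, 39 of which held more than 1 SRAT. The files credit the SRAT catalogue to Venkatesh and colleagues in 2016, whose Set2-repressed antisense transcripts carry this name.

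All samples were Saccharomyces cerevisiae of strain W303, in 22 groups of 2 replicates that carry separate strain numbers. Wild-type cells were quiescent (day 7) or arrested in G1 (day 1), and each state was sequenced as nascent RNA by 4tU-seq, which captures RNA that has taken up 4-thiouracil, and as steady-state RNA, from libraries of the Ovation SoLo kit. Quiescent rrp6-delta and wild-type cells of day 8 were sequenced in both fractions with the Universal Plus kit. With the same kit, steady-state RNA of rrp6-delta and wild-type cells was sequenced in G1 (day 1) and at the diauxic shift, when glucose runs out, 2 h before it, 2 h after it (both day 2), 24 h after it (day 3) and 48 h after it (day 4). Quiescent Nab3-AID cells and OsTIR-AID control cells of day 7, both given auxin (IAA) at 1 mg/ml, were sequenced in both fractions. Quiescent cells grew to saturation in rich medium with 2% glucose and were purified on a gradient, and G1 cells were early log cells arrested with alpha factor (5 µg/ml, repeated at 90 min if arrest was incomplete). The labels give no promoter for the degron or the OsTIR ligase and no measure of the Nab3 protein.

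As background, Set2 travels with RNA polymerase II and methylates lysine 36 of histone H3 in gene bodies. Eaf3 and Rco1 bring the Rpd3S deacetylase to this mark, which keeps cryptic start sites within genes closed, and SRATs were catalogued as antisense RNAs that appear when Set2 is missing. Antisense and other noncoding RNAs are also removed after they are made: Nab3, with Nrd1 and Sen1, ends the transcription of short noncoding RNAs and hands them to the nuclear exosome, of which Rrp6 is a 3′ to 5′ nuclease. CUTs are RNAs seen when the exosome is impaired, NUTs when Nrd1 is missing, XUTs when the cytoplasmic nuclease Xrn1 is missing, and SUTs are stable unannotated transcripts. The series asks how RNA synthesis and RNA levels change as cells become quiescent, and what Rrp6 and Nab3 contribute.

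By position, 465 SRATs (94.5%) overlapped a coding gene on the opposite strand and none on their own, against 53.1% of the 3826 other noncoding RNAs. A further 25 SRATs overlapped a coding gene on their own strand, where stranded reads of the SRAT and of the gene cannot be told apart, and 2 overlapped no coding gene. Of the 490 with an opposite-strand gene, 320 (65.3%, against 37.8% of the other noncoding RNAs with such a gene) started inside that gene, and 170 started beyond its 3′ end, at a median distance of 160.5 bases. They covered a median of 67.9% of the gene, against 87.8% for the other noncoding RNAs with such a gene. Of these SRATs 279 ran past its start and 103 covered it whole. SRATs were long, 129 to 7585 bases with a median of 1602.5, against a median of 729 for the other noncoding RNAs. A coding gene pointing away started within 500 bases of the SRAT start for 149 (30.3%, against 46.4% of the others), and a gene on the same strand ended within 500 bases upstream for 125 (25.4%, against 19.4%). By catalogue, 267 were SRATs alone, 164 were merged with a CUT or NUT, and 61 with an XUT or SUT only. They lay on all 16 chromosomes, from 7 on chromosome I to 72 on chromosome IV. All positions are on the R64 (sacCer3) build.

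The libraries held 1337088 to 11939647 reads on S. cerevisiae mRNAs, and 17120 to 170846 of the reads counted on noncoding RNAs lay on SRATs. Of the SRATs, 375 to 490 had at least 1 read in a library. RRP6 mRNA ran from 1.83 to 4.35 log2 CPM in the 14 rrp6-delta libraries and from 6.33 to 8.11 in the 30 others. CPM are reads per 1000000 S. cerevisiae mRNA reads after TMM scaling, and all changes below are therefore relative to mRNA. Summed pheromone-response markers (FUS1, FIG1, AGA1, PRM6, ASG7, BAR1) stood between 10900 and 26000 CPM in the 8 G1 libraries and between 84.4 and 294 CPM in the others, and the G1 libraries held 101 to 475 CPM of the quiescence markers (HSP26, HSP12, SPG1, SPG4, GRE1, ADH2, SNZ1) against 3830 to 92100 CPM in the quiescent ones. The replicates of quiescent steady-state RNA from wild-type cells of day 7 differed most, with a chi-square of 48.9 per noncoding RNA against 2.25 to 18.4 in the other groups. Unless said otherwise, values are of 2 libraries a group, errors are standard errors of log2 fold changes, and adjusted p-values are from edgeR over all noncoding RNAs tested, with a threshold of 0.05.

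The SRAT reads were spread very unevenly, and in steady-state RNA 2 members took a large part of them. SRAT337 (chrV:424680-430135, plus strand) lay antisense to 94.0% of PMD1 and began 369 bases after the end of RPS26B, a gene of the small ribosomal subunit on its own strand. SRAT774 (chrXII:899180-903463, plus strand) overlapped ECM19 on its own strand, lay antisense to STE23, which makes a protease for a-factor, and began 359 bases after RPS29A. Together they held 78.6% and 77.4% of the SRAT reads in steady-state RNA of OsTIR-AID cells and 72.4% and 72.1% in wild-type quiescent cells of day 8, but 4.19% to 9.98% in the 12 nascent libraries. In those nascent libraries the most-read 7 to 47 members made up the larger part of the SRAT reads, and in steady-state RNA the most-read 2 to 22.

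Summed over members, SRATs stood at 3383 and 3452 reads per 1000000 mRNA reads in nascent RNA of G1 cells and at 8657 and 6521 in nascent RNA of quiescent cells. The quiescent libraries were both above the G1 libraries, and without SRAT337 and SRAT774 they stood at 8295 and 6207 against 3202 and 3304. Steady-state sums were 4746 and 4306 in G1 and 8832 and 12575 in quiescence, or 3204 and 3162 against 5135 and 4671 without the 2 members. The lowest steady-state sums were those of wild-type cells 2 h before the shift, 3201 and 3464, and the highest those of Nab3-AID cells, 26645 and 29303. OsTIR-AID cells reached 25927 and 23966 in the same fraction, but 5561 and 5404 without SRAT337 and SRAT774, against 18995 and 19571 in Nab3-AID cells. With 2 against 2 libraries an exact permutation test, two-sided, cannot go below p = 0.3333. That was its value for the sums of quiescent against G1 cells in nascent RNA.

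**Figure D1:**
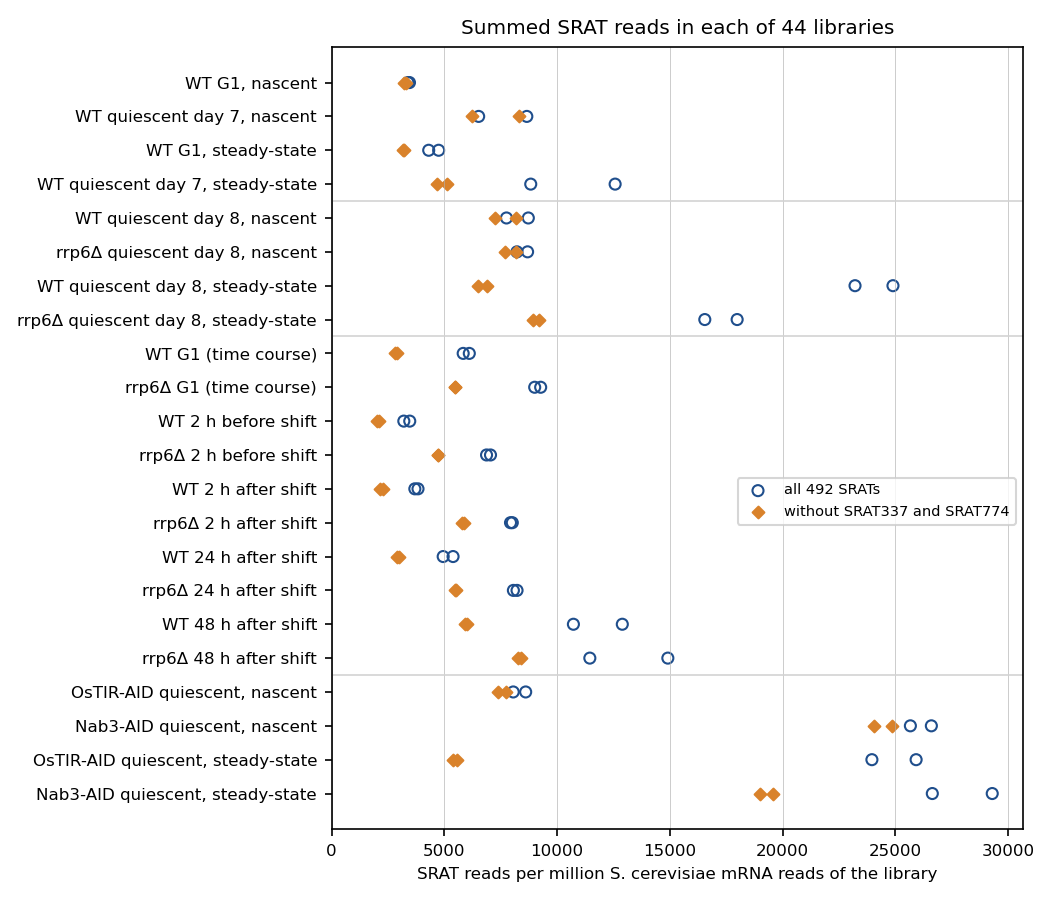
Summed SRAT reads per 1000000 S. cerevisiae mRNA reads (x axis) in each of the 44 libraries, by group (y axis), for all 492 SRATs (open circles) and without SRAT337 and SRAT774 (diamonds). In steady-state RNA of OsTIR-AID cells the circles stand at 25927 and 23966 and the diamonds at 5561 and 5404, and in nascent RNA circles and diamonds lie close together.

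Per kilobase of RNA, the median SRAT was below the median of the other noncoding RNAs in nascent RNA of G1 cells, at 0.666 and 0.604 against 3.20 and 3.20 CPM per kilobase. In nascent RNA of quiescent cells the medians were 3.56 and 2.40 against 9.90 and 7.35, and in nascent RNA of Nab3-AID cells 12.1 and 12.7 against 27.1 and 27.5. Among SRATs with no gene on their own strand, SRAT538, antisense to AIR1, was highest in both fractions of G1 cells of the Ovation set, with mean levels of 71.0 (nascent) and 207 CPM per kilobase (steady-state). SRAT337 led in every other steady-state group, from 159 in wild-type cells 2 h before the shift to 3104 in OsTIR-AID cells. In nascent RNA of rrp6-delta and of Nab3-AID quiescent cells the highest was SRAT414, antisense to the cleavage factor gene RNA15, with 74.9 and 267 CPM per kilobase.

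The comparison of quiescent with G1 wild-type cells asks how transcription of these RNAs differs between the states. In nascent RNA, 249 of the 361 SRATs with enough reads to be tested were higher in quiescent cells relative to mRNA and 26 were lower, but with the libraries scaled to their K. lactis reads in place of mRNA, 7 were higher and 229 lower. The 361 were of 492 SRATs, and 3154 of the 3826 other noncoding RNAs were tested. An RNA could pass the read filter through its quiescent libraries alone, so shares and medians of those tested lean towards higher. Over all 3515 noncoding RNAs tested, 55.4% were called higher and 11.3% lower. The median SRAT changed by 2.25 on the log2 scale, against 1.18 over all noncoding RNAs and 1.09 over the other noncoding RNAs, and by −2.19 with K. lactis scaling, which moved the median of all noncoding RNAs by −4.45. The deposited mRNA table counts genes of both yeasts, and the role of the K. lactis reads is not given in the sources used here.

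The SRATs with the largest rises in nascent RNA had next to no reads in G1. SRAT831 (chrXIII:240597-241373, plus strand), antisense to 37.4% of PPZ1, a phosphatase gene of salt tolerance, had 6.62 and 3.32 CPM in quiescent cells and no read in either G1 library. It was at least 40.8-fold higher against a floor of 3 counts over the group (adjusted p = 2.00e-05). SRAT358 (chrVI:122504-123013, minus strand), antisense to 13.9% of the cohesin gene SMC1, had 20.9 and 13.1 CPM against 0.0796 and 0.0786. These G1 values are 1 read per library, and the ratio of counts was 211 (95% counting interval 58.0 to 1751). SRAT208 (chrIV:744191-746159, plus strand) covered the whole of MKC7, which encodes a cell-surface aspartyl protease. It had 24.4 and 10.5 CPM against 0.0796 and 0.157, a ratio of 142.5 (48.3 to 694), and the mRNA of MKC7 was lower by a log2 of −2.42 ± 0.21. SRAT657 over the whole of STB6, SRAT993 over 66.7% of the SAGA gene SPT20 and SRAT651 over 30.6% of HSL1, a kinase gene of the morphogenesis checkpoint, had 8.62 and 8.26, 5.99 and 5.93, and 1.37 and 2.07 CPM in quiescent cells, against at most 1 read over the 2 G1 libraries. That the libraries of the states do not overlap was part of how these 6 were chosen. With K. lactis scaling the calls of SRAT993 (adjusted p = 0.0503) and SRAT651 (0.111) were lost.

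Among the SRATs that were lower in quiescence, several lay over genes whose mRNA was higher there. SRAT354 (chrVI:69021-74833, plus strand) ran over the whole of RIM15, which encodes a kinase needed for entry into quiescence. It had 3.26 and 3.50 CPM in quiescent cells against 37.8 and 39.4 in G1 cells, a log2 change of −3.50 ± 0.35 (adjusted p = 1.95e-06), and RIM15 mRNA was higher by 1.51 (adjusted p = 0.00126). SRAT536 over 96.8% of PFK26, the gene of a 6-phosphofructo-2-kinase, had 0.841 and 0.628 against 5.09 and 4.09 CPM (−2.63 ± 0.52), and PFK26 mRNA was higher by 3.02. SRAT696 over 54.3% of the LAMMER kinase gene KNS1 had 2 reads in quiescent cells and 64 in G1, and KNS1 mRNA was higher by 2.45. SRAT668 (FPT1) and SRAT944 (APC1, of the anaphase-promoting complex) were lower by −2.78 ± 0.42 and −2.75 ± 0.51, with mRNAs higher by 0.64 and 0.75. SRAT538 (chrIX:211366-212452, plus strand), over 59.1% of AIR1, a gene of the TRAMP complex that marks RNAs for the exosome, had 10.6 and 7.00 CPM against 84.0 and 70.4, a change of −3.13 ± 0.30, and the change of AIR1 mRNA, −0.26, did not pass the threshold.

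**Figure D2:**
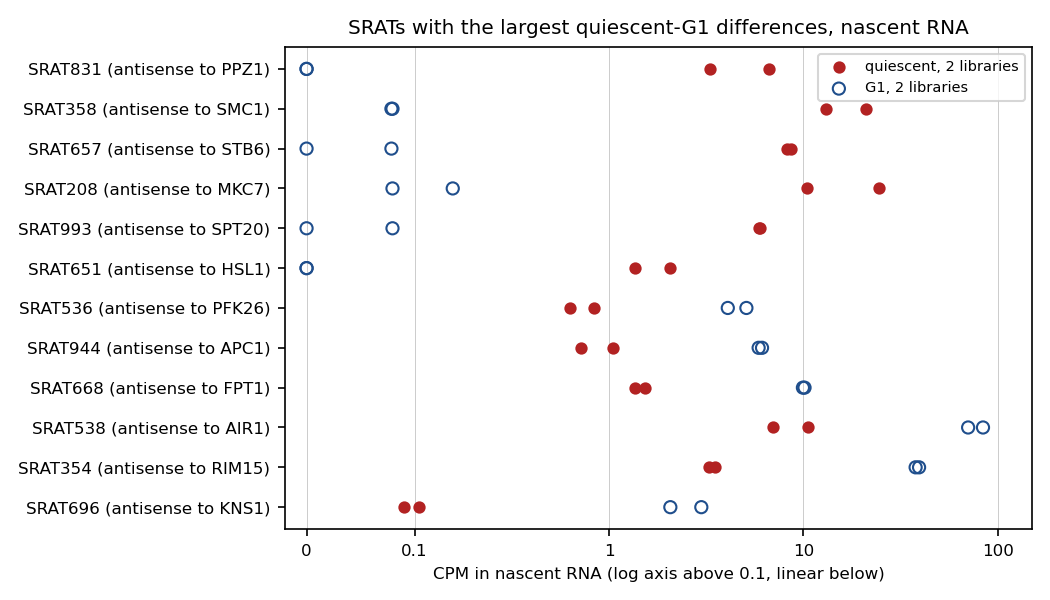
CPM in nascent RNA (x axis, log above 0.1 and linear below) of the 6 SRATs with the highest and the 6 with the lowest log2 change between quiescent (filled) and G1 cells (open), 1 point per library. The filled and open points of an SRAT do not overlap, which the choice of SRATs fixed, and SRAT831 and SRAT651 stand at 0 in both G1 libraries.

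Over the 357 tested SRATs with a tested opposite-strand gene, the change of the SRAT and that of the gene's mRNA in nascent RNA had a Pearson r of −0.305 and a Spearman rho of −0.293, a description across pairs that share the same 4 libraries. In 79 pairs the SRAT was called higher and the gene lower, in 65 both were higher, in 16 the SRAT was lower and the gene higher, and in 1 both were lower. Of the 357 genes 115 were higher and 96 lower, where 28.4% and 33.8% of all mRNAs were. With K. lactis scaling, which was not run for mRNAs, 7 SRATs were higher and 229 lower, so these pair counts hold for the mRNA scale only. In steady-state RNA r was −0.166 and rho −0.164, with 68, 75, 21 and 7 pairs in the same order. There 166 genes were higher and 109 lower, against 36.4% and 38.2% of all mRNAs. In the other comparisons r lay between −0.101 and 0.275.

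**Figure D3:**
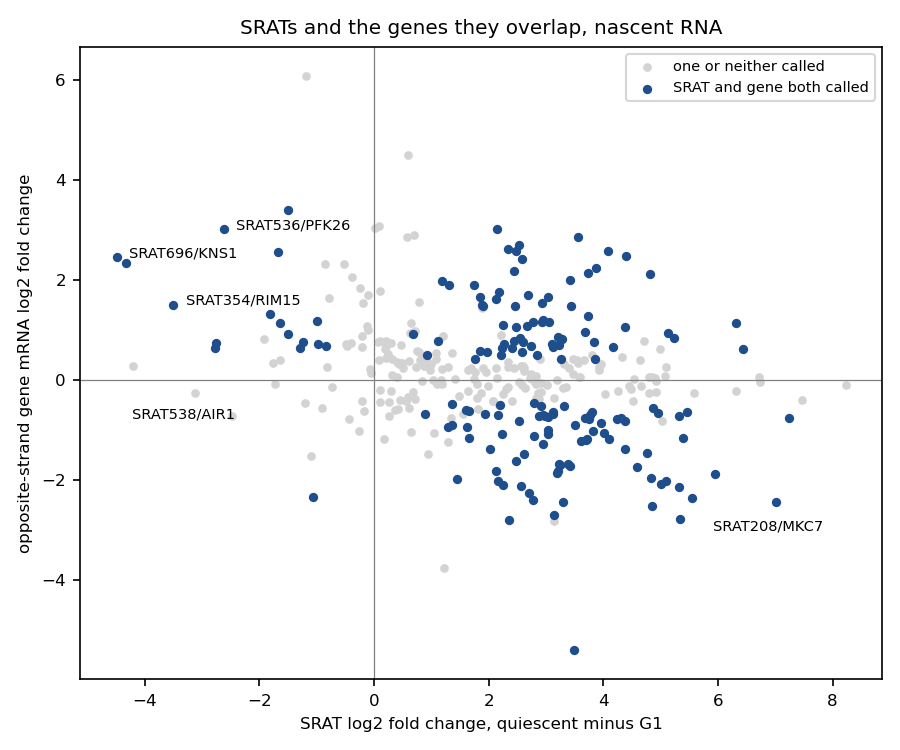
Log2 fold change of each SRAT (x axis) against that of the mRNA of its opposite-strand gene (y axis), quiescent minus G1, nascent RNA, for 357 pairs. Dark points are pairs in which both passed the threshold, and the labelled pairs SRAT354 with RIM15 and SRAT536 with PFK26 lie at lower SRAT and higher mRNA.

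In steady-state RNA, 191 of 361 SRATs were higher in quiescent cells and 36 lower, against 40.7% and 16.7% of all noncoding RNAs tested, with a median change of 1.69 (0.85 over all noncoding RNAs). K. lactis scaling gave 123 higher, and scaling to the noncoding reads 121 higher and 59 lower. SRAT863 (chrXIII:587062-587801, plus strand), antisense to 23.2% of MSS11, a gene for a regulator of flocculation, had 12.1 and 27.4 CPM in quiescent cells and no read in G1, at least 53.9-fold higher (adjusted p = 6.98e-06). SRAT556 (ECM25), SRAT225 (PCF11, a cleavage and termination factor), SRAT378 (MPT5, a Puf-family RNA-binding protein), SRAT1147 (THP3) and SRAT048 (CHS2, a chitin synthase of the septum) were likewise without a read in G1 and at least 13.6 to 33.5-fold higher. Among their genes MPT5 mRNA was lower by −3.69 and CHS2 by −0.73, THP3 was higher by 1.10, and the changes of ECM25 (−0.36) and PCF11 (−0.29) did not pass the threshold.

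SRAT538 was also the SRAT with the largest fall in steady-state RNA. It had 5.63 and 3.98 CPM in quiescent cells against 213.8 and 236.8 in G1, a change of −5.52 ± 0.36, and here AIR1 mRNA was lower too, by −1.47 (adjusted p = 0.000293). SRAT354 over RIM15 was lower by −3.49 ± 0.43 and SRAT282, over 91.5% of the polyphosphatase gene PPN1, by −4.23 ± 0.48. SRAT668 (FPT1), SRAT950 (THO2, of the THO complex) and SRAT1140 (CCL1, the cyclin of TFIIH) had 1 to 2 reads in quiescent cells against 17 to 59 in G1. The call of SRAT1140 was lost in DESeq2 (adjusted p = 0.0601) and on leaving out either G1 replicate 2 or quiescent replicate 2 (0.0618 and 0.0708). The share of all noncoding reads held by SRATs was 3.27% in quiescent and 3.37% in G1 cells, and without the SRATs that overlap a gene on their own strand it was higher in quiescence by 0.627 percentage points. With only SRAT337 and SRAT774 left out it was lower in quiescence, at a mean of 1.54% against 2.37%, so its direction depends on which members are counted.

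Set against steady-state RNA in the same cells, nascent RNA of G1 held no SRAT that was called higher and 7 that were called lower, where 0.171% and 4.35% of all noncoding RNAs were called in edgeR. DESeq2 also called 0 higher, and at an unadjusted edgeR p below 0.05 there were 40 SRATs in either direction, while with the replicate number as a block, which pairs samples of 1 strain, 1 SRAT was called higher. SRAT337 had 39.6 and 38.7 CPM in nascent against 427 and 258 in steady-state RNA (−3.13 ± 0.47), and SRAT007, over 90.0% of GIP4, 6.68 and 6.29 against 24.1 and 28.1 (−2.01 ± 0.39). With K. lactis scaling 263 SRATs were higher in nascent RNA and 1 lower, SRAT337 lost its call (−1.22, adjusted p = 0.106) and SRAT007 changed sign (0.0179). In quiescent cells 94 SRATs were higher in nascent RNA and 20 lower (31.1% and 10.6% of all), with a median of 0.65, which turned to −1.50, with 0 higher and 136 lower, under K. lactis scaling. SRAT172, antisense to the splicing factor gene PRP9, had 3.15 and 2.60 CPM in nascent RNA and no read in steady-state RNA, and SRAT496, antisense to the histone methyltransferase gene SET1, 9.98 and 5.30 against 0.296 and 0.443. SRAT337 again stood far lower in nascent RNA, at 92.3 and 66.6 against 779 and 2400 CPM, with no overlap between the fractions and a wide gap between the steady-state replicates.

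The test of whether the change between quiescence and G1 differed between the fractions called 14 SRATs with a larger nascent change and 3 with a smaller one (6.97% and 3.41% of all noncoding RNAs), or 22 and 8 with the replicate number as a block. Changes are compared here as signed log2 values, so a weaker fall counts as larger. SRAT538 was among the 14 (2.38, adjusted p = 0.00484), with −3.13 in nascent and −5.52 in steady-state RNA. The median difference was 0.34, against 0.40 over all noncoding RNAs, and −3.82 with K. lactis scaling, under which 0 were higher and 280 lower. SRAT176, antisense to 35.8% of the cohesin gene MCD1, had the largest difference, 3.64 ± 0.86 (adjusted p = 0.0174), and SRAT1089, antisense to NDD1, a coactivator gene of mitosis, the lowest, −3.22 ± 0.76. Both counts depended on single libraries, as leaving out 1 of the 8 gave 2 to 23 higher and 0 to 8 lower.

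Around the diauxic shift of wild-type cells, most SRATs passed the threshold in neither direction at any one step, 267, 327 and 274 of 421 in order. From 2 h before to 2 h after the shift 114 were higher (27.1%) and 40 lower (9.50%), against 29.1% and 16.4% of all noncoding RNAs. From 2 h to 24 h after it 70 were higher (16.6%, against 17.7%) and 24 lower (5.70%, against 9.97%), and from 24 h to 48 h 138 were higher (32.8%, against 25.8%) and 9 lower (2.14%, against 10.4%). At the first 2 steps the share called higher was thus near the background. For the last step, wild-type replicate 1 at 48 h was summed from runs of both batches. These runs differed by a chi-square of 27.1 per noncoding RNA, and fewer SRATs were higher without that replicate. The medians were 0.40, 0.18 and 0.89, and all 3 turned under K. lactis scaling, to −0.53, −1.21 and −0.50, with 44, 13 and 32 higher against 130, 202 and 100 lower. These steps share libraries, so their values stand side by side only.

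The SRATs that led each step lay at genes of different roles. SRAT133/SRAT134 (chrIV:68964-72525, plus strand), over 57.5% of GDH2, which encodes a glutamate dehydrogenase used in nitrogen recycling, had 9.999 and 13.0 CPM 2 h after the shift against 0.267 and 0.875 before it. It rose by 4.38 ± 0.39 and GDH2 mRNA rose by 4.91. SRAT986, antisense to PUL4, stood at 8.39 and 9.17 against 0.667 and 0.175 CPM (4.21 ± 0.39) and began 57 bases after YNR064C, whose mRNA rose by 3.39. SRAT668 (FPT1) fell by 3.34 on the log2 scale over the same step, from 5.07 and 6.13 to 0.893 and 0.173 CPM. By 24 h SRAT981, antisense to 31.1% of HEF3, a gene for a translation elongation factor, had 4.20 and 2.97 CPM against 0.357 and 0.173, and HEF3 mRNA rose by 2.68. SRAT991/SRAT992 over BSC5 fell by 2.84 on the log2 scale, and BSC5 mRNA by 2.39. By 48 h SRAT150, antisense to the autophagy gene ATG9, had 3.24 and 4.95 CPM and no read at 24 h, at least 8.14-fold higher, while ATG9 mRNA rose by 1.54.

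Wild-type G1 cells set against cells 2 h before the shift had 54 SRATs higher and 29 lower (13.6% and 11.7% of all noncoding RNAs), with a median of 0.01 that was −0.08 with K. lactis scaling. In the column names these G1 samples are all of batch 2 and the shift samples of batch 1, so cell state and batch cannot be told apart here. SRAT538 stood at 180 and 158 CPM in G1 against 3.07 and 1.93 CPM, a difference of 6.03 ± 0.19, with AIR1 mRNA lower by −0.66 (adjusted p = 2.16e-05). In rrp6-delta cells the same RNA had 203 and 157 CPM in G1 and 8.65 and 7.19 CPM 2 h before the shift.

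Without Rrp6, most SRATs were higher in steady-state RNA relative to mRNA in G1 and up to 24 h after the shift, and so were most noncoding RNAs. In G1 259 of 421 SRATs were higher in rrp6-delta cells and 7 lower (69.0% and 3.54% of all noncoding RNAs), 2 h before the shift 283 and 6 (72.6% and 5.12%), and 2 h after it 285 and 11 (67.7% and 6.15%). At 24 h 238 were higher and 39 lower (58.7% and 11.9%), and at 48 h 141 and 29 (41.3% and 8.15%). The medians were 1.34, 1.54, 1.59, 1.16 and 0.59, against 1.39, 1.57, 1.40, 1.17 and 0.80 over all noncoding RNAs. Scaled to the noncoding reads themselves the medians were 0.07, 0.17, 0.35, 0.22 and −0.16, so the direction at 48 h turned, and 79, 116, 113, 124 and 59 SRATs were higher against 80, 60, 66, 87 and 97 lower. With K. lactis scaling they kept their sign, at 1.45, 1.18, 0.84, 2.56 and 1.39.

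Some SRATs stood far higher without Rrp6 than in wild-type cells of the same state or time, several with 1 read or none in those wild-type libraries. SRAT862 (chrXIII:584286-586553, plus strand), over 99.3% of INP2, a gene of peroxisome inheritance, had 8.52 and 7.81 CPM in G1 rrp6-delta cells and 1 read over both wild-type libraries, a ratio of 97.4 (17.2 to 3873). SRAT1159, antisense to NVJ2, SRAT923, over the boron transporter gene BOR1, and SRAT410, antisense to the mannosyltransferase gene ALG2, had no read in wild-type G1 cells and were at least 10.8, 5.88 and 4.23-fold higher. At 2 h before the shift SRAT276 over 64.3% of ARO80, an activator gene of aromatic amino acid breakdown, stood at 13.4 and 12.9 against 0.533 and 0.525 CPM (4.58 ± 0.37), and SRAT172 over PRP9 at 7.52 and 8.02 against 0.267 and 0.350 (4.57 ± 0.48). SRAT869, over the whole of the mitochondrial ribosomal gene MRPL24, had 17.2 and 15.9 CPM 2 h after the shift against 1 read over both wild-type libraries, and MRPL24 mRNA was lower by −1.17. At 24 h SRAT747 over the meiotic gene RED1 had 16.8 and 18.8 CPM against 1 read, and SRAT105/SRAT106, antisense to MRC1, 6.45 and 5.64 CPM against none. SRAT354 over RIM15, which was low in quiescence, stood at 287 and 288 CPM in G1 rrp6-delta cells against 24.9 and 23.1 in wild-type ones (3.58 ± 0.12), and the change of RIM15 mRNA, −0.18, did not pass the threshold.

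The few SRATs that were lower without Rrp6 included SRAT577, over 97.6% of GWT1, a gene of GPI anchor synthesis, with 0.691 and 0.610 against 3.09 and 3.83 CPM in G1 (−2.36 ± 0.48), and SRAT831 over PPZ1, with 2 against 13 reads. SRAT750, antisense to YLR278C, was lower 2 h before the shift (−1.22 ± 0.25). SRAT959 and SRAT960, which both lie antisense to the leucine synthesis gene LEU4, had 1.05 and 0.839, and 0.630 and 0.839 CPM 2 h after the shift, against 4.29 and 6.57, and 4.29 and 4.67 in wild-type cells, while LEU4 mRNA was lower by −2.43. At 24 h SRAT981 was lower (3 against 23 reads) together with HEF3 mRNA (−4.30). At 48 h SRAT691, over 77.5% of the flocculin gene FLO10, had 40.7 and 50.5 CPM against 268.5 and 300.5, a change of −2.63 ± 0.14 (adjusted p = 2.75e-26), and SRAT225 over PCF11 2.00 and 2.40 against 7.77 and 12.02 (−2.06 ± 0.51). Small differences near the threshold, such as those of SRAT343 and SRAT1122 in G1 (−0.48 and −0.32), were lost on leaving out 1 library.

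The effect of the deletion was smaller at 48 h than 2 h before the shift for 120 SRATs and larger for 4 (27.7% and 4.33% of all noncoding RNAs), by a test of the difference. Smaller and larger refer here to the signed log2 value of the effect. The median difference was −0.83, against −0.57 over all noncoding RNAs, and 0.33 with K. lactis scaling, under which 55 were larger and 34 smaller. The quiescence markers also differed between the strains, as 7 of 7 were higher in rrp6-delta cells 2 h before the shift (median 2.52) while at 48 h 4 of 7 were lower (median −0.77). Between these times, 3 were higher and 2 lower at 2 h after the shift (median 0.10). At 24 h 0 were higher and 6 lower (median −2.47), further down than at 48 h. Their part in the result was not tested. At 48 h rrp6-delta replicate 1 came from batch 2 only and wild-type replicate 1 from both batches, and without that wild-type replicate 79 SRATs had a smaller and 1 a larger effect.

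In nascent RNA of quiescent cells of day 8, most SRATs passed the threshold in neither direction. Of 455 tested, 37 were higher and 19 lower in rrp6-delta cells (15.8% and 1.96% of all noncoding RNAs), with a median of 0.09 that was −0.16 when scaled to the noncoding reads. SRAT414 (chrVII:416201-417203, plus strand), over 93.8% of RNA15, had 85.6 and 64.6 against 14.2 and 31.0 CPM (1.73 ± 0.29, adjusted p = 0.00131), SRAT168 over the whole of PUS9, a tRNA pseudouridine synthase gene, 43.7 and 41.8 against 14.1 and 12.4 (1.68 ± 0.21), and SRAT215, antisense to the SAGA gene NGG1, 13.4 and 10.8 against 3.97 and 2.56 (1.88 ± 0.29). SRAT1067, antisense to the pseudouridine synthase gene PUS7, was the highest by log2 change (2.27 ± 0.46). SRAT192, over 88.8% of the deubiquitinase gene DOA4, was lower at 6.46 and 9.17 against 21.8 and 47.7 CPM (−2.14 ± 0.41), and so were SRAT225 (−1.67 ± 0.28) and SRAT968 (−1.58 ± 0.33), which shares its gene MLF3 with SRAT969 (−1.62 ± 0.52, lost without 1 of 3 libraries). Leaving out wild-type replicate 1 left 22 higher and 12 lower, without wild-type replicate 2 there were 56 higher, and without rrp6-delta replicate 2 there were 24 and 7. With the replicate number as a block the counts were 65 and 32, with K. lactis scaling 8 and 4, and scaled to the noncoding reads 20 and 36.

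In steady-state RNA of the same cells 125 SRATs were higher and 27 lower (33.6% and 5.14% of all noncoding RNAs), with a median of 0.61 against 0.73. Scaled to the noncoding reads 69 were higher and 52 lower, with K. lactis scaling 280 and 4, and without wild-type replicate 2 there were 80 higher. SRAT414 stood at 315 and 311 against 31.1 and 32.1 CPM (3.31 ± 0.33). SRAT172, SRAT699, SRAT346 and SRAT034, antisense to PRP9, the vacuolar transporter gene BPT1, the TFIIH helicase gene RAD3 and the spindle gene STU1, had 18 to 28 reads in rrp6-delta cells and none in wild-type ones, at least 2.24 to 3.48-fold higher, and each lost its call without at least 1 wild-type library. SRAT495, antisense to DMA1, was lower at 3.43 and 3.26 against 22.6 and 21.1 CPM (−2.71 ± 0.37), and SRAT225 at 5.999 and 5.70 against 33.0 and 26.2 (−2.34 ± 0.34). The most abundant SRATs fell as well on the mRNA scale: SRAT337 stood at 5701 and 6477 against 14110 and 13090 CPM (−1.16 ± 0.14) and SRAT774 at 2194 and 2495 against 8984 and 7662 (−1.83 ± 0.16). With K. lactis scaling the change of SRAT337 was −0.0117 (adjusted p = 0.972) and that of SRAT774 −0.68 (0.0445). In nascent RNA their changes, 0.10 and −0.20, did not pass the threshold.

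The test of whether the deletion acted differently on the fractions called 54 SRATs with a smaller nascent than steady-state effect and 10 with a larger one (13.5% and 2.49% of all noncoding RNAs). Effects are compared here as signed log2 values, so a weaker fall in nascent RNA also counts as larger. The median difference was −0.60, against −0.51 over all noncoding RNAs. SRAT337 (1.26 ± 0.20, adjusted p = 0.00104) and SRAT774 (1.63 ± 0.22) were among the 10. They fell in steady-state RNA (−1.16 and −1.83), and their nascent changes (0.10 and −0.20) did not pass the threshold. Both lost the call with K. lactis scaling (0.0854 and 0.47, adjusted p = 0.862 and 0.352). That scaling gave 208 smaller and 0 larger, DESeq2 30 smaller and scaling to the noncoding reads 25 smaller. Without 1 of the 4 steady-state libraries in turn, 24 to 27 SRATs had a smaller nascent effect.

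Auxin-treated Nab3-AID cells had the highest SRAT levels of the series in nascent RNA. Of 451 tested, 348 were higher than in OsTIR-AID cells and 40 lower (73.8% and 9.07% of all noncoding RNAs), with a median of 1.77 against 1.73, and in steady-state RNA 292 were higher and 29 lower (61.7% and 9.59%), with a median of 1.92 against 1.70. The summed nascent reads were 25672 and 26603 against 8055 and 8607 reads per 1000000 mRNA reads, and the share of noncoding reads 8.39% and 8.26% against 4.79% and 4.60%. All 7 quiescence markers were lower in Nab3-AID cells (median −1.97 in nascent and −2.15 in steady-state RNA), and their part in the result was not tested. Scaled to the noncoding reads, 189 SRATs were higher and 135 lower in nascent RNA, and 141 and 95 in steady-state RNA.

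SRAT002 (chrI:54242-54584, plus strand), antisense to 17.2% of GEM1, which encodes a GTPase of mitochondria, had 31.5 and 31.1 CPM in nascent RNA of Nab3-AID cells and 1 read over both control libraries, a ratio of 251 (44.9 to 9952), and GEM1 mRNA was lower by −2.25. SRAT628 (chrX:691113-692423, plus strand), antisense to 26.5% of the histone regulator gene HIR3, had 14.2 and 13.2 CPM against none, at least 36.8-fold higher. SRAT935 (chrXIV:211280-212778, minus strand), antisense to 32.0% of BNI4, a gene of the bud neck, was among the highest in both fractions, with 43.2 and 47.4 CPM against 2 reads in nascent RNA and 56.0 and 58.9 CPM against none in steady-state RNA, at least 34.1-fold. In steady-state RNA SRAT059/SRAT060, over 65.1% of VPS15, a kinase gene of vacuolar sorting, SRAT1044, over the tRNA export gene CEX1, and SRAT1000, antisense to the mitochondrial helicase gene HMI1, were at least 31.0, 19.2 and 14.1-fold higher. SRAT414 over RNA15 rose in nascent RNA from 40.5 and 53.2 to 234 and 301 CPM (2.52 ± 0.17).

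SRAT829 (chrXIII:236789-238939, minus strand), over 90.6% of PSP2, had the largest fall. It had 20.4 and 16.3 CPM in nascent RNA of Nab3-AID cells against 243 and 259 in the control (−3.76 ± 0.16, adjusted p = 1.40e-17), and 17.6 and 19.9 against 325 and 339 in steady-state RNA (−4.15 ± 0.18). PSP2 mRNA changed by 0.12 and 0.16 and passed the threshold in neither. SRAT454, over the N-glycan gene DIE2, was lower by −2.17 ± 0.28, and SRAT577, over GWT1, by −2.06 ± 0.22 with GWT1 mRNA higher by 1.75. In steady-state RNA SRAT750 (YLR278C) was lower at 18.8 and 22.0 against 224 and 173 CPM (−3.29 ± 0.19), and SRAT608, antisense to the ubiquitin ligase gene HUL4, at 9.53 and 15.4 against 197 and 59.6, a call that was lost without either Nab3-AID library. SRAT337 and SRAT774 rose slightly in nascent RNA on the mRNA scale (0.68 ± 0.24 and 0.74 ± 0.24), a direction that turned when scaled to the noncoding reads (−0.80 and −0.75). On the mRNA scale they fell in steady-state RNA, from 17860 and 16020 to 3808 and 4910 CPM (−1.96 ± 0.25) and from 12910 and 11910 to 2479 and 3500 CPM (−2.05 ± 0.25). With K. lactis scaling these falls were −0.31 and −0.42 and did not pass the threshold (adjusted p = 0.135 and 0.0556).

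**Figure D4:**
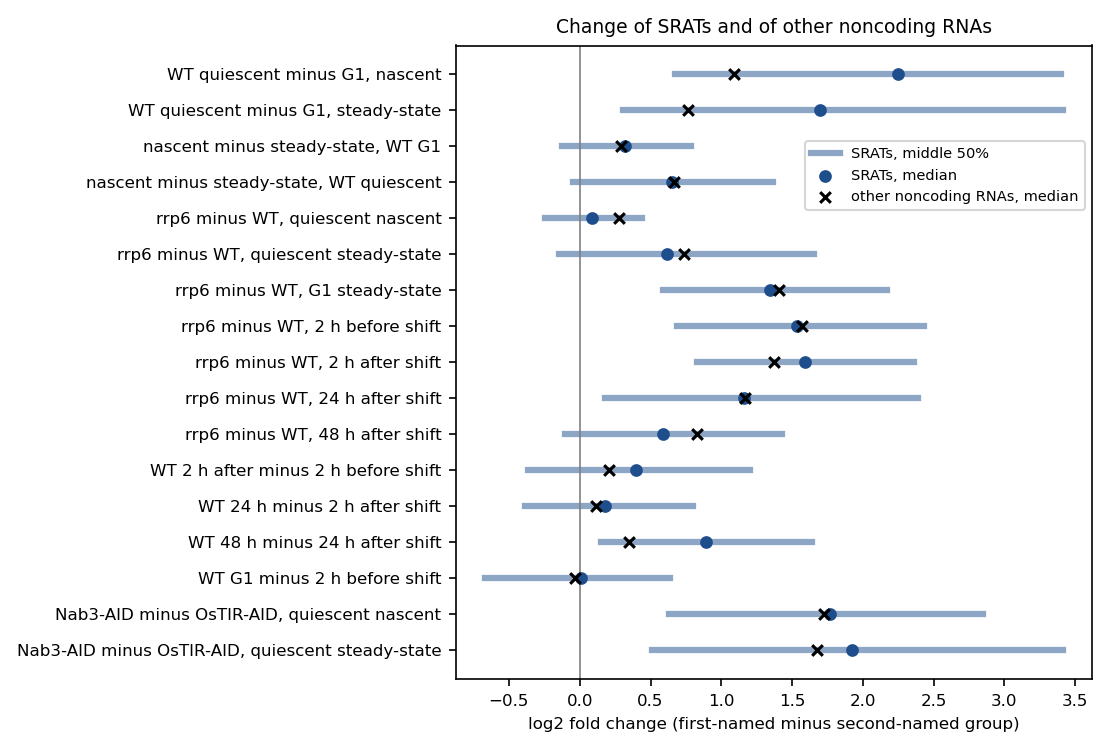
Log2 fold change (x axis) of SRATs in 17 comparisons (y axis, first-named minus second-named group, relative to mRNA), with the median as a point and the middle 50% of SRATs as a bar, and the median of the other noncoding RNAs as a cross. The medians of SRATs and of the others are 2.25 and 1.09 for quiescent minus G1 nascent RNA, a comparison that turns to −2.19 for SRATs with K. lactis scaling, and 1.77 and 1.73 for nascent RNA of Nab3-AID minus OsTIR-AID cells.

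The catalogues merged into an SRAT went with its calls, given here as counts with no test between the classes. Between quiescence and G1 in nascent RNA, 122 of the 156 tested SRATs alone were higher (78.2%, median 2.95), 91 of 147 of those merged with a CUT or NUT (61.9%, 1.74) and 36 of 58 of those with an XUT or SUT only (62.1%, 1.84). The classes held 267, 164 and 61 members in all, so the read filter removed most from the SRATs alone. As it can be passed through the quiescent libraries alone, these shares cannot be set against each other freely. Without Rrp6, 2 h before the shift, the order was the other way round, with 95 of 196 SRATs alone (48.5%), 149 of 164 with a CUT or NUT (90.9%) and 39 of 61 with an XUT or SUT only (63.9%). In quiescent nascent RNA without Rrp6, 8 of 231, 29 of 163 and 0 of 61 were higher, and 15, 1 and 3 lower. With Nab3-AID 171 of 228 (75%), 140 of 163 (85.9%) and 37 of 60 (61.7%) were higher in nascent RNA. By start, 147 of 251 SRATs that began inside their gene and 135 of 169 that began beyond its 3′ end were higher without Rrp6 2 h before the shift. Between quiescence and G1 the counts were 151 of 201 and 97 of 158. CUTs and NUTs were catalogued by others from cells without exosome or Nrd1 function, so that their share in the rrp6-delta and Nab3-AID calls is not independent of how those catalogues were made.

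**Figure D5:**
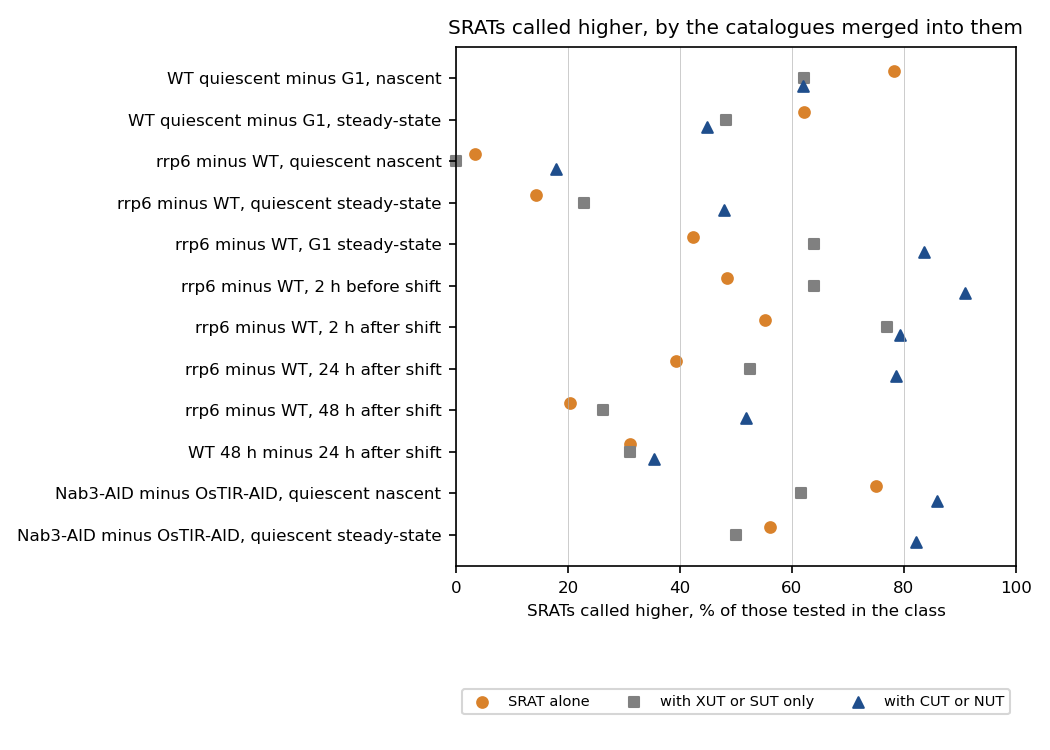
Share of tested SRATs called higher (x axis, percent) in 12 comparisons (y axis), relative to mRNA, by the catalogues merged into the SRAT. Without Rrp6 2 h before the shift the shares are 48.5% for SRATs alone, 90.9% with a CUT or NUT and 63.9% with an XUT or SUT only, while between quiescence and G1 in nascent RNA SRATs alone have the highest share, 78.2%, before any K. lactis scaling.

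Across experiments that share no library, the calls overlapped in part. All 37 SRATs that were higher without Rrp6 in quiescent nascent RNA and tested in both were also higher with Nab3-AID in nascent RNA, where they made up 11.2% of the 331 called. Of all 434 SRATs tested in both, 76.3% were higher with Nab3-AID, and of the 608 noncoding RNAs that were higher without Rrp6, 93.3% were. In steady-state RNA 111 were shared, 89.5% of those called without Rrp6 and 39.8% of those with Nab3-AID, where 64.3% of the SRATs tested in both were higher with Nab3-AID and the share over all noncoding RNAs was 88%. Of the lower calls 15 were shared (55.6% and 51.7%, against 70.8% and 38.6% over all noncoding RNAs). Between rrp6-delta cells 48 h after the shift and rrp6-delta quiescent cells, in steady-state RNA, 79 higher calls were shared (56.8% and 64.2%, against 64.7% and 79% over all noncoding RNAs) and 14 lower ones (48.3% and 51.9%, against 43.2% and 68.2%). Of the SRATs higher in quiescence than in G1 in nascent RNA, 109 were also higher from 24 h to 48 h after the shift, 46% of the former and 83.2% of the latter, where 68.3% of the SRATs tested in both were higher in quiescence and the shares over all noncoding RNAs were 36.6% and 71.4%. Both sets of calls turn with K. lactis scaling, as given above. Among those tested in both, 16 of the 17 SRATs that were lower without Rrp6 in quiescent nascent RNA, and 25 of the 35 that were lower with Nab3-AID, had been called higher in quiescence than in G1, where 247 to 249 of 357 to 361 were. Over all noncoding RNAs these were 61 of 74 and 188 of 342.

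Some SRATs were followed through the whole series, and their courses differed. SRAT829 over PSP2 stood at 1.03 and 1.26 CPM in nascent RNA of G1 cells and at 126 and 59.3 in quiescent ones (6.32 ± 0.46). In wild-type steady-state RNA it stood at 4.40 and 6.30 CPM 2 h before the shift, 11.6 and 13.7 at 2 h, 30.1 and 29.7 at 24 h and 259 and 229 at 48 h after it, higher at each step on the mRNA scale, but with K. lactis scaling only at the last (0.32, −0.18 and 1.67, adjusted p = 0.297, 0.468 and 2.60e-15). At 48 h rrp6-delta cells had 78.6 and 84.1 (−1.60 ± 0.14). Without Rrp6 SRAT829 was also lower at 24 h (−1.66) and in quiescent steady-state RNA (−0.74). These calls were lost with K. lactis scaling (adjusted p = 0.264 and 0.338). In quiescent nascent RNA its change without Rrp6 was −0.14 (adjusted p = 0.718). In G1 (0.72) and 2 h before (−0.36) and after the shift (0.37) the change did not pass the threshold either. SRAT225 over PCF11 had 0.933 and 0.525 CPM 2 h before the shift and 7.77 and 12.02 at 48 h in wild-type cells, and was lower in rrp6-delta cells at 48 h and in quiescence, and with Nab3-AID in both fractions (−1.40 ± 0.28 and −1.92 ± 0.33), the last 2 not with K. lactis scaling (adjusted p = 0.563 and 0.667). Its rise was not steady, with a change of −2.80 from 2 h before to 2 h after the shift (adjusted p = 0.0402). At 2 h after the shift SRAT225 was higher in rrp6-delta than in wild-type cells (2.95, adjusted p = 0.026). That call was lost with K. lactis scaling (2.27, adjusted p = 0.12). SRAT414 over RNA15 also rose from 1.33 and 0.700 CPM before the shift to 54.4 and 65.8 at 48 h, but was higher in rrp6-delta cells (224 and 281 CPM at 48 h) and with Nab3-AID. SRAT538 over AIR1 and SRAT354 over RIM15, by contrast, were high in G1 and low in quiescence, and without Rrp6 both were higher 2 h before the shift (1.63 ± 0.28 and 3.41 ± 0.13), a call that SRAT538 lost when scaled to the noncoding reads (0.23, adjusted p = 0.517).

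The mRNAs of the Set2 pathway, a list of 19 genes chosen for the source of the catalogue, changed in both directions on the mRNA scale, and other scalings were not run for mRNAs. In nascent RNA 4 were higher and 5 lower in quiescence than in G1 (28.4% and 33.8% of all mRNAs), and in steady-state RNA 10 and 5 (36.4% and 38.2%). SET2 itself changed by −0.17 and −0.26, which did not pass the threshold (adjusted p = 0.394 and 0.196). EAF3 was higher by 1.04 and 1.61, RCO1 by 0.64 and 1.49, and IOC2, of a chromatin remodeller recruited through the Set2 mark, lower by −2.40 and −2.51. Without Rrp6 2 h before the shift 0 of 19 were higher and 11 lower (30.5% and 32.3%), with SET2 at −0.65. From 24 h to 48 h after the shift 12 were higher and 5 lower (32.6% and 39%), and with Nab3-AID in nascent RNA 3 and 11 (35.8% and 34.1%). Of 34 genes, chiefly of mRNA 3′-end formation, Nrd1-Nab3-Sen1, TRAMP and the exosome, 4 were higher and 13 lower in nascent RNA between quiescence and G1, 9 and 13 in steady-state RNA, 14 and 12 without Rrp6 2 h before the shift, and 11 and 13 with Nab3-AID in nascent RNA. The shares of all mRNAs in these 4 comparisons were 28.4% and 33.8%, 36.4% and 38.2%, 30.5% and 32.3%, and 35.8% and 34.1%. RRP6 is 1 of the 34 genes, and its lower mRNA in rrp6-delta cells was fixed by the deletion. At 2 h before the shift it stood at 1.83 and 2.05 log2 CPM, against 7.57 and 7.38 in wild-type cells.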

How the data were processed

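Reads were counted by the authors, who deposited whole-number counts per library for noncoding RNAs and, in a second table, for mRNAs of S. cerevisiae and K. lactis. Per the submitters' processing notes, STAR, UMI-tools, SAMtools, HTSeq, FastQC, MultiQC and deepTools were used with the R64 (sacCer3) build, and versions are not given in the sources used here. Reads that HTSeq could not place uniquely (7.99% to 62.5% per library) and other lines that name no gene stayed out of library sizes and tests. Batch and run names come from the column names, and repeat runs of a sample were summed. Runs of the wild-type 48 h sample, from different batches, differed by a chi-square of 27.1 per noncoding RNA. Replicates of that group differed by 8.06, and runs of the quiescent rrp6-delta steady-state sample by 0.793. The summed wild-type runs at 48 h were thus not interchangeable. With only the first run of repeated samples, 23 named results stayed the same and 5 were weaker.

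Counts were tested with edgeR 4.0.16 in R 4.3.3 (robust quasi-likelihood fit, filterByExpr) in 4 sets: wild-type Ovation libraries, quiescent rrp6-delta and wild-type libraries, G1 and diauxic shift libraries, and auxin libraries. Library sizes and TMM factors came from S. cerevisiae mRNAs. P-values were adjusted by Benjamini-Hochberg over all noncoding RNAs tested. DESeq2 1.42.0, other scalings, filters, blocks and left-out libraries were alternatives. Intervals of count ratios are exact at 95%, and they and the floor of 3 counts cover counting error only. On simulated data 82% to 97.5% of 200 RNAs changed by 4-fold were recovered, and 4.41% to 8.37% of the calls were false. Each simulation changed 200 of 3515 to 3931 RNAs by that fixed amount. In the data up to 73.8% of noncoding RNAs were called higher, so these rates need not hold for the comparisons here. Tables used numpy 2.4.6, pandas 2.3.3 and scipy 1.17.1, and plots matplotlib 3.10.9.

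Members and lists were chosen with earlier results of these data known. The SRATs named in a comparison were those with the highest and lowest log2 fold change among those past the threshold, with no gene on their own strand and no overlap between groups: 6 each way for quiescence against G1, 4 for most rrp6-delta and the Nab3-AID comparisons, 2 for the others. Interactions had no overlap criterion. Some of these were left out of the text where their values repeat a pattern, and SRAT337, SRAT774 and the values of SRAT225, SRAT354, SRAT414, SRAT538 and SRAT829 outside those ranks were chosen after their values were seen. The strand of the opposite gene and all distances use the gene annotation deposited by the authors, without genes classed as Dubious. Gene names come from RefSeq. No genome sequence was used here, so no SRAT sequence is shown.

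Replicates of a genotype carry strain numbers that recur across its groups, which pairs them. The deviations of same-numbered samples of 1 genotype correlated from −0.0279 to 0.310 in the wild-type Ovation set, 0.0493 to 0.0971 in the quiescent set, −0.0318 to 0.0817 in the shift set and 0.0794 to 0.430 in the auxin set. Across genotypes the labels do not link the numbers, and the correlations ran from 0.00906 to 0.453 in the quiescent set (0.453 for rrp6-delta with wild-type nascent RNA), −0.0278 to 0.0374 in the shift set and −0.136 to −0.0454 in the auxin set. With 2 samples a group these do not settle whether such samples are paired.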

Additional observations from a re-analysis of the deposited data

Results flagged for a closer look

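All results here came up because a test of the difference between 2 effects passed the threshold. Larger and smaller refer to signed log2 values, so a weaker fall counts as larger. The change between quiescence and G1 differed between nascent and steady-state RNA for 14 SRATs with a larger nascent change and 3 with a smaller one. Among them were SRAT176 (antisense to MCD1, 3.64 on the log2 scale), SRAT496 (SET1, 3.20), SRAT1089 (NDD1, −3.22) and SRAT242 (INM2, −2.17), and each of these 4 lost its call on leaving out 1 of at least 3 libraries. The rrp6-delta effect in quiescent cells was larger in nascent RNA for 10 SRATs and smaller for 54. SRAT1067 (PUS7, 2.47) and SRAT495 (DMA1, 1.87) lay on one side. SRAT034 (STU1, −7.92) and SRAT346 (RAD3, −7.44) lay on the other, where wild-type steady-state RNA held no read of either, so that the size depends on the prior count. The rrp6-delta effect was larger at 48 h than 2 h before the shift for 4 SRATs and smaller for 120. SRAT1054 (PNS1, 6.27), SRAT721 (HOG1, 2.25), SRAT267 (MUS81, −6.23) and SRAT540 (YIL067C, −5.37) were named by rank, and all 4 lost the call without at least 2 libraries in turn.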

How the results depend on the processing

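Counts are given as higher and lower SRATs, and the cause of a change was not tested. With K. lactis scaling, quiescence against G1 gave 7 and 229 in nascent RNA and 123 higher in steady-state RNA, with 0 and 280 for their difference. Nascent against steady-state RNA gave 263 and 1 in G1 and 0 and 136 in quiescence. Without Rrp6 the counts were 8 and 4 in quiescent nascent RNA, 280 and 4 in steady-state RNA and 0 and 208 for the difference, 10 lower 2 h before the shift, 176 and 33 at 2 h, 375 and 10 at 24 h, 268 and 7 at 48 h, and 55 and 34 for the change of effect. The wild-type steps gave 44 and 130, 13 and 202, and 32 and 100, and Nab3-AID gave 4 lower in each fraction. SRAT176 (−0.50) and SRAT496 (−1.03) in the interaction of quiescence and SRAT007 (0.0179) in G1 changed sign. This scaling moved the median of all noncoding RNAs by −4.45 (nascent) and −0.30 (steady-state) for quiescence against G1, by 2.00 and −2.15 for nascent against steady-state RNA in G1 and quiescence, and by −1.39 to 1.69 in the other comparisons of 2 groups.

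Scaled to the noncoding reads, quiescence against G1 gave 60 lower in nascent RNA, 121 and 59 in steady-state RNA and 11 lower for the difference. Nascent against steady-state RNA gave 11 lower in G1 and 58 and 39 in quiescence. Without Rrp6 the counts were 20 and 36 (quiescent nascent), 69 and 52 (quiescent steady-state), 25 lower (difference), 79 and 80 (G1), 116 and 60 (2 h before), 113 and 66 (2 h), 124 and 87 (24 h), 59 and 97 (48 h) and 25 and 65 (change of effect). The last wild-type step gave 21 lower, and Nab3-AID gave 189 and 135 in nascent and 141 and 95 in steady-state RNA. DESeq2 gave 8 higher for the quiescence difference, 56 higher for nascent RNA in quiescence and 30 lower for the rrp6-delta difference. Only the first run of repeated samples gave 2 higher for the change of effect.

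With the replicate block, the quiescence difference gave 22 and 8, nascent RNA in G1 1 higher, and rrp6-delta in quiescent nascent RNA 65 and 32. The block moved no other count by over 1.5 times and kept the calls of all 121 named results. Crossing the numbers of the OsTIR-AID samples, chosen after seeing the data, gave 349 and 40 in nascent and 293 and 28 in steady-state RNA. Without the SRATs that overlap a gene on their own strand, also added later, nascent RNA in G1 gave 4 lower, rrp6-delta gave 4 lower in G1 and 3 lower 2 h before the shift, and the steady-state share of SRATs turned to 0.627 percentage points higher in quiescence. With only SRAT337 and SRAT774 left out that share was lower in quiescence, 1.54% against 2.37% in G1.

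Leaving out 1 library at a time, where an arm's lone sample is assumed to vary like the other groups, gave 2 to 23 higher and 0 to 8 lower for the quiescence difference (4, 2, 3 and 2 higher without G1 nascent 1 and 2 and G1 steady-state 1 and 2, 9 and 23 without quiescent nascent 1 and 2). For nascent against steady-state RNA it gave 3 to 5 lower in G1 (3 without nascent 2), and 48 to 114 higher and 13 to 21 lower in quiescence (48 and 13 without steady-state 2, 51 higher without nascent 1). Without Rrp6 in quiescence it gave 22 to 56 and 7 to 20 in nascent RNA, 80 to 111 and 12 to 18 in steady-state RNA (80 higher without wild-type 2; 12, 15 and 12 lower without wild-type 1, rrp6-delta 1 and rrp6-delta 2), and 3 to 11 and 24 to 71 for the difference. It gave 3 to 7 lower 2 h before the shift (3 without wild-type 1), 7 to 11 at 2 h (7 without replicate 2 of either), 91 to 121 and 16 to 31 at 48 h (91 and 16 without wild-type 1), and 1 to 6 and 79 to 120 for the change of effect. Wild-type cells gave 14 to 24 lower from 2 h to 24 h, 86 to 134 higher from 24 h to 48 h (86 without replicate 1 at 48 h), and 11 to 23 lower in G1 against 2 h before the shift (11 without G1 1). Of the 121 named results 38 lost their call without some library. At 2 libraries a group, SRATs with few reads are the least certain. The planned motif windows were not run, since no genome sequence was used here.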
